A study of Homo sapiens with 12 samples.

Results

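The genes described here encode 10 proteins that hepatocytes secrete into plasma as carriers or as part of the acute-phase response. They were listed by symbol and role, with earlier results of these data known: ALB, AFP, TTR, TF, HP, HPX, SERPINA1, ORM1, ORM2 and AHSG. All 10 were found once among the 57500 genes of the count files, and all 10 passed the filter on low counts in every comparison. The libraries were made from HepG2, a human hepatocellular carcinoma line that keeps much of the secretory programme of a hepatocyte. The 12 libraries form 3 groups of 4 replicates: unmodified cells (WT), cells carrying an shRNA against TST (shTST) and cells with added TST (overTST). TST encodes thiosulfate sulfurtransferase, or rhodanese, a mitochondrial enzyme that detoxifies cyanide. Every group was kept in 400 µM glycine for 24 h, so no group without glycine enters these comparisons.

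Both modified lines were made by lentiviral transduction; the overexpressed coding sequence was codon-optimised and driven by a CMV promoter. Whether the lines are pools or single clones, and whether WT cells carried a control vector, is not given in the sources used here. The replicates are described as independent experiments. Libraries held 28866175 to 45120508 counts in WT, 27527854 to 33865386 in shTST and 22911380 to 27414142 in overTST. The chi-square of counts between 2 replicates, per gene, was 5.87 to 35.3 in WT, 4.41 to 8.2 in shTST and 3.58 to 9.64 in overTST. It was largest for WT replicate 4 against replicates 1 and 3 (35.3 and 33.7), and it also grows with depth. Values per library are given as CPM, read counts relative to library size, after scaling of all 12 libraries by the TMM method. TST itself was at 47.2 to 52.8 CPM in WT, 33 to 36.6 in shTST and 51.8 to 62.1 in overTST. It fell with silencing (log2 fold change −0.52, SE 0.055, adjusted p = 3.2e-06) and rose with overexpression (0.24, SE 0.062, adjusted p = 0.00384), where reads of a codon-optimised copy may not align to the gene. The summed level of 12 markers of hepatocyte-derived lines was 17238 to 18040 CPM in WT, 16568 to 17395 in shTST and 16235 to 16840 in overTST. WT and overTST did not overlap. The 13 markers of blood, endothelial, fibroblast and stellate cells summed to 62.3 to 78.7 CPM, with ACTA2 the highest of them. PTPRC, COL1A2, COL3A1 and LRAT were below 0.1 CPM in every library, and the mitochondrially encoded share of counts was 6.91 to 12% in WT, 6.84 to 8.65% in shTST and 10.8 to 11.7% in overTST.

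Hepatocytes supply most plasma proteins. These are made on ribosomes at the endoplasmic reticulum, folded there and exported through the Golgi apparatus. During inflammation, cytokines such as IL-6 act through STAT3 and C/EBP factors to raise the positive acute-phase proteins, here HP, HPX, SERPINA1, ORM1 and ORM2, while the negative acute-phase proteins ALB, TTR, TF and AHSG go down. AFP, the fetal counterpart of albumin, is silenced after birth and returns in many hepatocellular carcinomas. Basal transcription of this class in liver depends on HNF1, HNF4, FOXA and C/EBP factors.

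ALB and AFP are neighbours on chromosome 4 in the same orientation, at 73397114 to 73421412 and 73431138 to 73456174 (GRCh38, as in the count files). ORM1 and ORM2 are neighbours on chromosome 9, at 114323056 to 114326475 and 114329869 to 114333252. TF lies on chromosome 3 at 133745956 to 133779006, and AHSG on the same chromosome at 186612923 to 186621318. TTR is on chromosome 18 (31591726 to 31599021), HP on chromosome 16 (72054592 to 72061055), HPX on chromosome 11 (6431049 to 6442617, minus strand) and SERPINA1 on chromosome 14 (94376747 to 94390693, minus strand). RefSeq promoters, 250 bases before to 50 bases after an annotated start, were at hand for 7 of the 10 genes (GRCh38.p14). Promoters are printed for 4 of them. They were picked because ALB and AFP moved together, AHSG moved the other way with silencing, and ORM1 rose in both modified lines. Capitals mark matches, on either strand, to 7 short motifs of factors that act in liver, whose letters are given with their counts after the sequences. The windows are chr4:73404037-73404336, chr4:73435971-73436270, chr3:186612810-186613109 and chr9:114322848-114323147, all on the plus strand.
ALB: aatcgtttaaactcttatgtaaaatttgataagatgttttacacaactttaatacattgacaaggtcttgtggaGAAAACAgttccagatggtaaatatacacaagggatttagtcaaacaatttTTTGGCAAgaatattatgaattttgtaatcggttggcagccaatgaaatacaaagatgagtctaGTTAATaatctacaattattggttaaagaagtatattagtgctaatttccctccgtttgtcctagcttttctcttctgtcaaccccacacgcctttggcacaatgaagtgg
AFP: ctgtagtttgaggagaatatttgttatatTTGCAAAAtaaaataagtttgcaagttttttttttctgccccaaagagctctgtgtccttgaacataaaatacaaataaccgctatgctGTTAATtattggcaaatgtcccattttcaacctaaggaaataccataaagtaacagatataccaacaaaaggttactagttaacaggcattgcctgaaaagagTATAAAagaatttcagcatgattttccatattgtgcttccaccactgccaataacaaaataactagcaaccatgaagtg
AHSG: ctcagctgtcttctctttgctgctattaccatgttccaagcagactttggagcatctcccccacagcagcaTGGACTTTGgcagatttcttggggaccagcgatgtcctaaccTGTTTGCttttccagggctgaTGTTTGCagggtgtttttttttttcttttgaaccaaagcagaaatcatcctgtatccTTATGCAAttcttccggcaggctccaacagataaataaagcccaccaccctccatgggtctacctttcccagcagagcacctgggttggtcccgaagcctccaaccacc
ORM1: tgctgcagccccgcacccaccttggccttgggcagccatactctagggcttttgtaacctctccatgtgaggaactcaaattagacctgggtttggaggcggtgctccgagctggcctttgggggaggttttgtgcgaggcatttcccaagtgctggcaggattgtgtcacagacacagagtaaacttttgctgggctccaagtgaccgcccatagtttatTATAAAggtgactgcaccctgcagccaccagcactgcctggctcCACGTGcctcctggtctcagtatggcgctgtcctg

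The C/EBP core (TTGCNNAA) was found in promoters of 5 of the 7 genes (ALB, AFP, TF, HPX and AHSG), against 10.5% of the 35116 promoters in the table. The HNF1 core (GTTAAT) was in those of 3 genes (ALB, AFP and SERPINA1), against 6.88%. For the FOXA core (TGTTTNC), 3 genes had a match (ALB, SERPINA1 and AHSG), against 18% of all promoters. The TATA box letters (TATAAA) stood at −29 relative to the start in both AFP and ORM1, 2 of the 7, against 11.5%. The HNF4 repeat (CAAAGTCCA) was in AHSG alone (0.384% of all promoters) and the E-box (CACGTG) in ORM1 alone (7.26%). The STAT core (TTCNNNGAA), found in 7.66% of all promoters, had no match in the 7 genes within these windows. TF and SERPINA1 each have 2 annotated starts, and a match at either was counted. These matches describe letters and do not show binding.

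ORM1 and ORM2, the genes of the alpha-1-acid glycoproteins that bind basic drugs, are near copies, and their separate counts rest on the bases at which they differ. Over 606 aligned coding bases (GENCODE 29) they were 94.9% identical, with 31 mismatches and a longest identical run of 206 bases. The 60-base stretch with the most mismatches, 14, is given here with the differing bases in capitals (coding bases 338 to 397).
ORM1: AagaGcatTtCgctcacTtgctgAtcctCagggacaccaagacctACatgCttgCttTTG
ORM2: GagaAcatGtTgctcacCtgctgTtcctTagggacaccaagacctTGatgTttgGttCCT
HP and its neighbour HPR shared 95.6% of 1044 aligned coding bases, whereas ALB and AFP shared 56.2% of 1794 with no identical run over 11 bases. HPR held 21% as many counts as HP. How reads that align to several genes were treated is not given in the sources used here.

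In levels per length (CPM per kilobase of annotated exons, mean ± SD, n = 4), ALB was the highest of the 10 genes in WT, at 1699 ± 164. SERPINA1, which encodes the elastase inhibitor alpha-1-antitrypsin, followed at 1060 ± 78.1, and AHSG, which encodes the mineral-binding fetuin-A, at 956 ± 44.9. Their ranges overlapped (954 to 1133 and 903 to 1012), although SERPINA1 was the higher of them in 4 of 4 WT libraries. AFP came next at 618 ± 61.8, TF at 234 ± 17.7, ORM1 at 180 ± 10.5 and ORM2 at 123 ± 9.95. The lowest were TTR at 43.8 ± 1.61, HP at 24.5 ± 3.15 and HPX at 6.25 ± 0.538, and none of these further neighbours overlapped in WT. With silencing the ranges of AFP, at 865 ± 106, and AHSG, at 850 ± 48.3, overlapped (715 to 954 and 789 to 891), and AFP was the higher in 3 of 4 libraries. SERPINA1, at 954 to 1123, also overlapped AFP with silencing, and was the higher in 4 of 4 libraries. With overexpression TF, at 214 to 323, overlapped ORM1, at 207 to 244, and was the higher in 3 of 4 libraries. SERPINA1, at 957 to 1073, overlapped AHSG there, at 841 to 986, and was the higher in 4 of 4. Exonic length here counts all annotated exons, 8565 bases for TF and 5405 for HP against 760 for ORM2, which lowers the values of genes with many alternative exons. Together the 10 genes took 1.61 to 1.94% of all counts in WT, 1.85 to 2.24% in shTST and 1.58 to 2.05% in overTST.

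**Figure D1:**
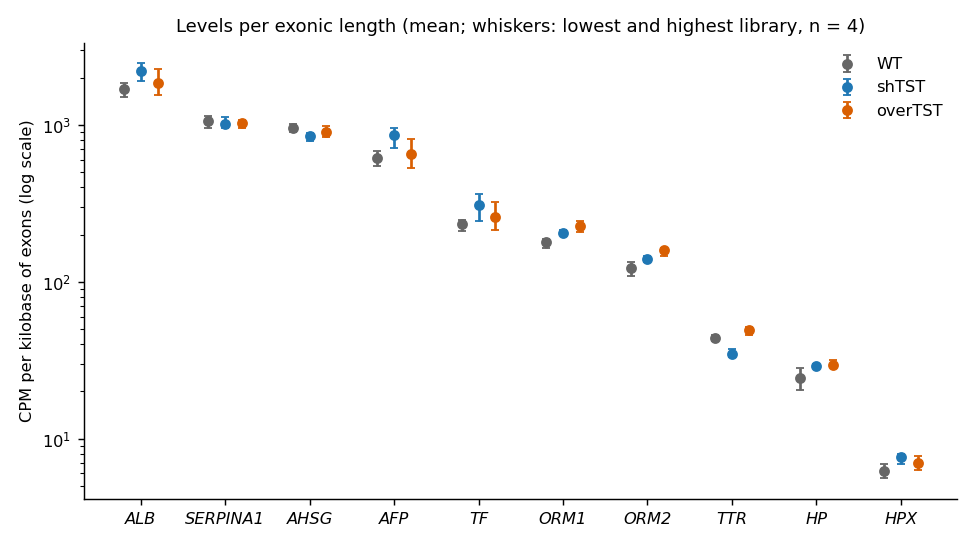
Level of each gene per kilobase of annotated exons (CPM per kilobase, log axis) in WT, shTST and overTST; points are means of 4 libraries and whiskers the lowest and highest library. The 10 genes span from about 6.25 for HPX to 1699 for ALB in WT.

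To ask which changes in these genes went with silencing of TST, shTST was compared with WT. The test was edgeR's quasi-likelihood test with Benjamini-Hochberg adjustment over 14584 genes. Of the 10 genes, 9 passed an adjusted p of 0.05. ALB, AFP, TF, HP, HPX, ORM1 and ORM2 rose (7 genes, against 6.69% of all genes tested called higher), TTR and AHSG fell (2 genes, against 9.40% called lower), and SERPINA1 did not pass. The rises ran from 1.14-fold for ORM1 and ORM2 to 1.40-fold for AFP. The negative acute-phase genes divided into 2 that rose and 2 that fell, and 4 of the 5 positive ones rose. The median log2 fold change of the 10 was 0.215, beside 0.00401 over all genes tested. In 6 of the 10 the groups did not overlap, against 19.1% of all genes tested. The genes tested reach down to low levels, where standard errors are larger. That of the marker CDH5, at 0.299 CPM in shTST, was 0.34, against 0.047 to 0.082 for the 10 genes. The shares over all genes, here and below, are not matched for level. Under upper-quartile scaling the calls over all genes turned from 975 higher and 1371 lower to 1284 and 1151.

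AFP, at 2139, 1787, 2221 and 1904 CPM in WT, was at 3111, 2331, 2996 and 2832 in shTST. Every silenced library lay above every WT library, with replicate 2 the lowest of the silenced ones. The log2 fold change was 0.49 (SE 0.077, adjusted p = 2.1e-04). ALB, which encodes albumin, the main carrier of fatty acids and bilirubin in plasma, was at 6182, 5127, 6234 and 5412 CPM in WT and at 8342, 6430, 7764 and 7495 in shTST. Here too the groups did not overlap, although the highest WT library and the lowest silenced one were close. It rose by 0.39 (SE 0.075, adjusted p = 0.0014). TF encodes transferrin, the plasma carrier of iron. Its WT values were 2105, 1795, 2125 and 1989 CPM, and its shTST values 2816, 2098, 3099 and 2628. Replicate 2 of shTST fell within the WT range, so the groups overlapped. The change was 0.41 (SE 0.082, adjusted p = 0.00185), a call that limma-voom with robust moderation did not make (0.40, adjusted p = 0.0889).

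Among the positive acute-phase genes, HP encodes haptoglobin, which binds free haemoglobin. It was at 134, 110, 152 and 133 CPM in WT and at 156, 153, 161 and 155 in shTST. The silenced libraries lay within a narrow band just above the highest WT library, and WT replicate 2 was the lowest of all. Its rise was 0.24 (SE 0.063, adjusted p = 0.0113). HPX, which encodes the haem-binding hemopexin, measured 22.2, 20.3, 25.0 and 23.2 CPM in WT and 24.9, 27.4, 29.1 and 29.1 in shTST. Silenced replicate 1 overlapped WT replicate 3, and the other silenced libraries were above all WT ones. HPX rose by 0.29 (SE 0.07, adjusted p = 0.00663). ORM1 stood at 169, 149, 168 and 164 CPM in WT and at 189, 181, 193 and 179 in shTST, without overlap (0.19, SE 0.047, adjusted p = 0.00664). ORM2 had a change of like size (0.19, SE 0.053, adjusted p = 0.0202), from 96.1, 83.1, 101 and 93.4 CPM to 106, 101, 112 and 105, with silenced replicate 2 touching the highest WT library. Its call was lost without WT replicate 2 (0.13, adjusted p = 0.065) or without shTST replicate 3 (0.16, adjusted p = 0.0639).

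TTR encodes transthyretin, the carrier of thyroxine and of the retinol-binding protein. It was at 90.6, 95.4, 99.2 and 95.6 CPM in WT and at 81.2, 72.1, 74.5 and 74.1 in shTST. All silenced libraries were below all WT libraries. TTR fell by 0.33 on the log2 scale (SE 0.048, adjusted p = 7.7e-05), with values of −0.36 to −0.31 whichever library was left out. AHSG had 2269, 2125, 2380 and 2228 CPM in WT and 2084, 1857, 2097 and 1958 in shTST. The groups were separated by a small gap between silenced replicate 3 and WT replicate 2. The fall was 0.17 on the log2 scale (a log2 fold change of −0.17, SE 0.054, adjusted p = 0.032), and this call was fragile. It was lost without WT replicate 1 (−0.17, adjusted p = 0.0619), replicate 3 (−0.14, adjusted p = 0.0928) or replicate 4 (−0.17, adjusted p = 0.0609). It was also lost without shTST replicate 1 (−0.18, adjusted p = 0.0533), replicate 2 (−0.13, adjusted p = 0.124) or replicate 4 (−0.16, adjusted p = 0.11), and under upper-quartile scaling (−0.15, adjusted p = 0.0737) and GC correction (−0.15, adjusted p = 0.0501). SERPINA1 was at 5396, 4675, 5553 and 5166 CPM in WT and at 4984, 4675, 5504 and 4759 in shTST. The ranges nearly coincided, with a log2 fold change of −0.06 (SE 0.064, adjusted p = 0.568).

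**Figure D2:**
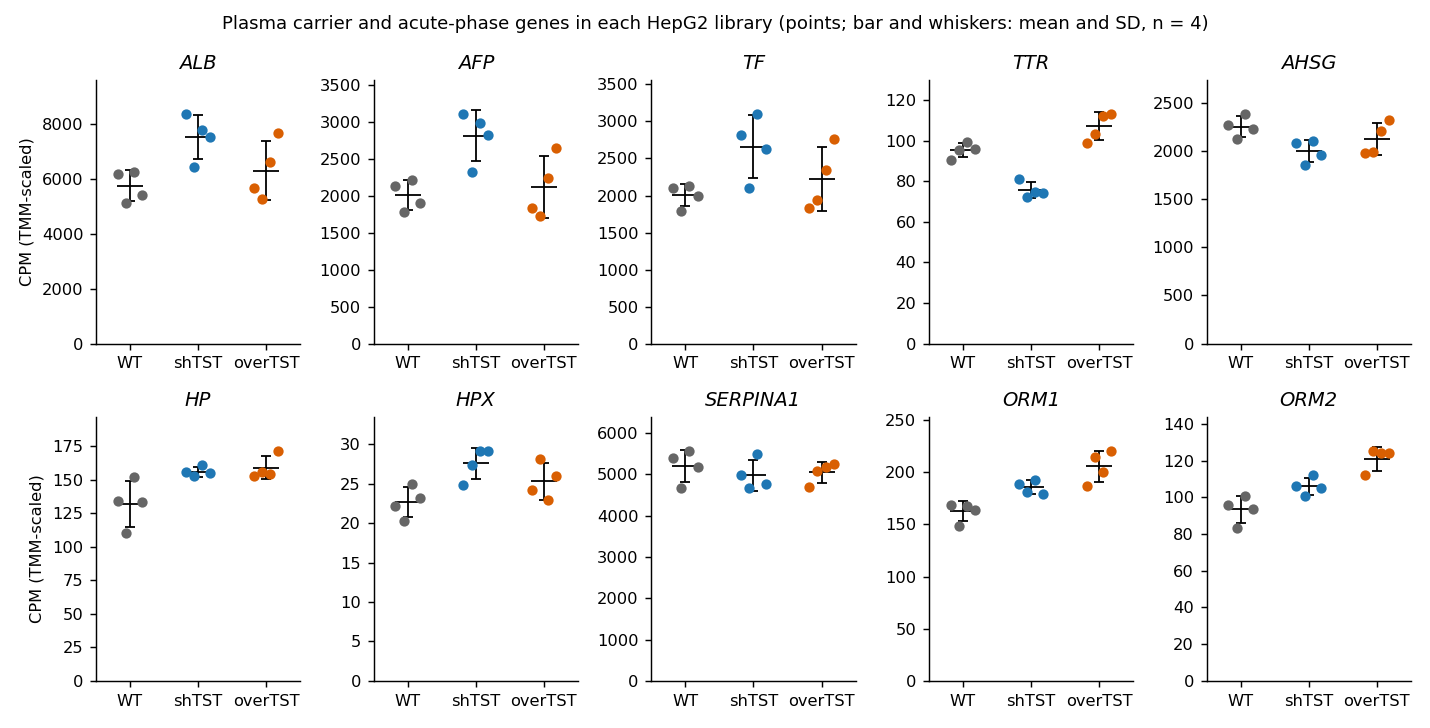
CPM of each of the 10 genes in every library of WT, shTST and overTST, 1 point per library in order of replicate number, with the mean and SD (n = 4) as bar and whiskers; each axis starts at 0. The silenced libraries lie above all WT libraries for ALB, AFP, HP and ORM1 and below them for TTR and AHSG.

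For overTST against WT, 14421 genes were tested. Of the 10 genes, 4 rose: ORM2, ORM1, HP and TTR (15.7% of all genes tested were called higher). The count called lower by edgeR was 0, against 18.2% of all genes. At an unadjusted p of 0.05 it was also 0, and DESeq2 and limma-voom gave 0. The rises ran from 1.12-fold for TTR to 1.30-fold for ORM2. The median log2 fold change was 0.155, beside 0.00192 over all genes. In 3 of the 10 the groups did not overlap, against 30.4% of all genes, a share at the background.

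ORM1 was at 187, 215, 200 and 220 CPM in overTST, above the highest WT value of 169. It rose by 0.34 (SE 0.056, adjusted p = 5.7e-05). ORM2 was at 112, 125, 124 and 124 CPM, above the highest WT value of 101, and rose by 0.38 (SE 0.058, adjusted p = 2.6e-05). Replicate 1 was the lowest of the overexpressing libraries for both genes. Both are short, with 901 and 760 exonic bases, and correction for a trend with gene length brought the changes to 0.16 (adjusted p = 0.0155) for ORM1 and 0.20 (adjusted p = 0.00399) for ORM2. HP, at 153, 156, 154 and 171 CPM, was above all WT libraries in each overexpressing library, most in replicate 4. Its change was 0.26 (SE 0.068, adjusted p = 0.00399), close to that with silencing.

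TTR was at 98.8, 103, 112 and 113 CPM in overTST. Replicate 1 fell just below the highest WT library, at 99.2, and the others were above it. The log2 fold change was 0.16 (SE 0.053, adjusted p = 0.0197). This call was lost after length correction (0.03, adjusted p = 0.635) and with no filter (0.14, adjusted p = 0.07). It was lost as well without WT replicate 1 (0.14, adjusted p = 0.073), overTST replicate 3 (0.14, adjusted p = 0.0901) or overTST replicate 4 (0.13, adjusted p = 0.0807).

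ALB, AFP and TF, which had the largest rises with silencing, did not pass with overexpression. ALB was at 5658, 5250, 6600 and 7649 CPM (0.13, SE 0.089, adjusted p = 0.269). AFP was at 1841, 1735, 2251 and 2657 CPM (0.08, SE 0.094, adjusted p = 0.571), and without overTST replicate 4 its value was −0.05. TF was at 1830, 1941, 2350 and 2769 CPM (0.15, SE 0.089, adjusted p = 0.208), and passed without overTST replicate 1 (0.23, adjusted p = 0.0283) and after length correction (0.27, adjusted p = 0.032). All 3 spread widely among the overexpressing libraries, with coefficients of variation of 17, 19.9 and 19.2%. In the same order these were 10.7, 12.2 and 15.9% in shTST, against 7.55 to 10% in WT. For each, replicates 1 and 2 lay within or near the WT range and replicates 3 and 4 above it. Replicate 3 was only just above it for AFP (2251 against 2221 CPM). HPX was at 24.2, 28.2, 22.9 and 26.0 CPM (0.16, SE 0.077, adjusted p = 0.11) and passed without WT replicate 3 (0.21, adjusted p = 0.0499). SERPINA1, at 4692, 5073, 5168 and 5259 CPM, stayed within its WT range (−0.04, SE 0.063, adjusted p = 0.648). AHSG, at 1979, 1991, 2203 and 2321 CPM, overlapped WT (−0.08, SE 0.06, adjusted p = 0.304) and passed as lower after length correction (−0.20, adjusted p = 0.00917).

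Since both comparisons share the WT libraries, the difference between the lines was tested directly, shTST against overTST, in a fit of all 12 libraries (14883 genes). Of the 10 genes, 6 passed. AFP, ALB and TF were higher in shTST (3 genes, against 16.9% of all genes called higher), and TTR, ORM1 and ORM2 were lower (3 genes, against 16.1% called lower). TTR had the most certain difference (−0.50, SE 0.052, adjusted p = 2.3e-07). It was the single gene of the 10 whose groups did not overlap (29.2% of all genes tested), at 72.1 to 81.2 CPM against 98.8 to 113. It kept its call after length correction, at −0.38 (adjusted p = 2.9e-06). AFP differed by 0.41 (SE 0.098, adjusted p = 0.00218), but not with limma-voom (0.42, adjusted p = 0.0533).

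ALB (0.26, SE 0.09, adjusted p = 0.0308) and TF (0.26, SE 0.1, adjusted p = 0.0484) were near the threshold. ALB was not called without shTST replicate 1, 3 or 4 (0.20, 0.24 and 0.26) or overTST replicate 1 or 2 (0.21 and 0.18), and TF was not called without shTST replicate 1, 3 or 4 (0.23, 0.18 and 0.27) or overTST replicate 1, 2 or 3 (0.18, 0.20 and 0.29). DESeq2 called neither (adjusted p = 0.116 for ALB and 0.181 for TF). After GC correction the values were 0.15 for ALB (adjusted p = 0.231) and 0.17 for TF (adjusted p = 0.254). ORM1 (−0.15, SE 0.052, adjusted p = 0.033) and ORM2 (−0.19, SE 0.055, adjusted p = 0.00829) lost their calls after length correction, at 0.0003 and −0.05. ORM1 was also lost without shTST replicate 2 or 4 (−0.13 each) or overTST replicate 2 or 4 (−0.12 and −0.11), with no filter (−0.13, adjusted p = 0.0761) and under GC correction (−0.12, adjusted p = 0.0672). HP (−0.02, SE 0.063, adjusted p = 0.838), HPX (0.13, SE 0.075, adjusted p = 0.199), SERPINA1 (−0.02, SE 0.061, adjusted p = 0.841) and AHSG (−0.09, SE 0.057, adjusted p = 0.257) did not pass. Of these, the HP and AHSG values turned in sign after summing with HPR (0.01) and after length correction (0.02).

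**Figure D3:**
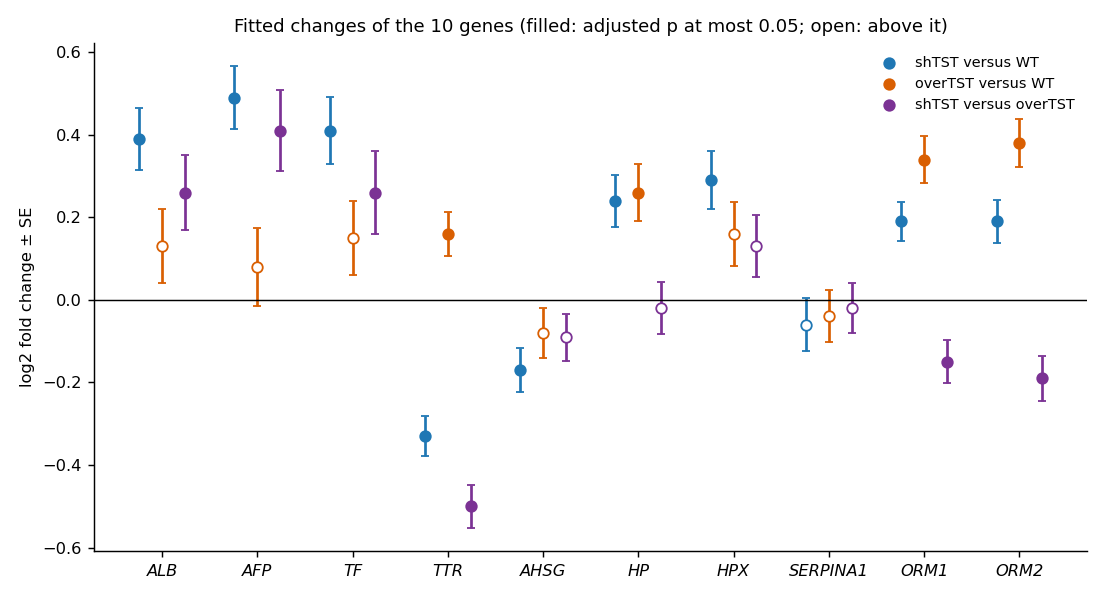
Log2 fold change ± standard error of each of the 10 genes in shTST versus WT, overTST versus WT and shTST versus overTST; filled points have an adjusted p of at most 0.05 and open points do not. AFP, ALB and TF lie at 0.39 to 0.49 with silencing and at 0.08 to 0.15 with overexpression, and TTR lies on opposite sides of 0.

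Within a library, the ratio of 2 genes is free of scaling between libraries. The log2 ratio of ALB to AFP counts was 1.531, 1.520, 1.489 and 1.507 in WT, 1.423, 1.464, 1.374 and 1.404 in shTST, and 1.620, 1.597, 1.552 and 1.525 in overTST. It was lower in every silenced library than in every WT library, by 0.095 on average (a difference of −0.095; exact permutation test, two-sided, p = 0.0286, the smallest that 4 against 4 allow). ALB thus exceeded AFP 2.67-fold in shTST and 2.85-fold in WT. Against overTST the difference was −0.157 (exact p = 0.0286), and between overTST and WT it was 0.062 (exact p = 0.0571). After adjustment over the 9 ratio tests none passed, with adjusted p of 0.129, 0.129 and 0.171. The ORM1 to ORM2 ratio did not separate any groups (means 0.801, 0.809 and 0.760 in WT, shTST and overTST, exact p of 0.2 to 0.8), nor did HP to HPX (means 2.540, 2.504 and 2.651, exact p of 0.114 to 0.629).

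The genes also varied together among libraries of the same group. After subtraction of each group's mean log2 CPM, the Pearson correlation over the 12 libraries was 0.99 for ALB with AFP, 0.91 for ALB with TF and 0.94 for AFP with TF. AHSG followed the same deviations, with r of 0.94 with ALB and 0.96 with both AFP and TF, although it fell with silencing where they rose. TTR had r of 0.66 to 0.71 with ALB, AFP and TF within groups, and −0.52 to −0.34 when group differences were kept. HPX had r of −0.05 with ALB and 0.00 with AFP. ORM1 with ORM2 was at 0.86 and SERPINA1 with ORM2 at 0.93. These correlations describe 12 libraries that share their depth and scaling, and were not tested.

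**Figure D4:**
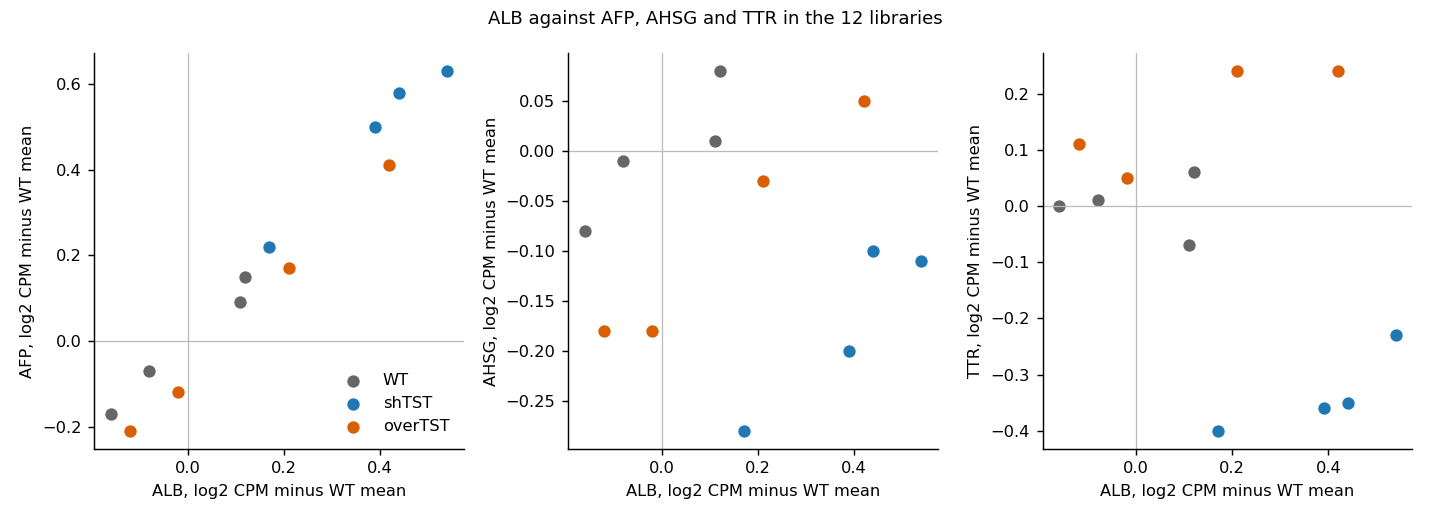
Log2 CPM minus the WT mean of AFP, AHSG and TTR (vertical axes) against that of ALB (horizontal axis), 1 point per library, coloured by group. AFP follows ALB in all groups. AHSG rises with ALB inside each group, and its silenced libraries lie below the WT ones but overlap the overexpressing ones. For TTR the silenced libraries lie lowest.

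Over the 5216 other genes whose log2 CPM averaged at least 5, the gene with the profile most like each of the 10 was found by Pearson's r of log2 CPM over the 12 libraries. TTR was matched best by TST, the gene that was manipulated (r = 0.971, and 0.635 after subtraction of group means). ALB was matched by CFI, a complement regulator that also lies on chromosome 4 (r = 0.943), AFP by GPC3, another oncofetal gene (0.948), and TF by SERPINF1, which encodes a secreted serpin (0.960). For HP the match was AP1M2 (0.934), for HPX CALM3 (0.888), for SERPINA1 LRPAP1 (0.871) and for AHSG ACSS2 (0.892). ORM1 was matched by DTD1 (0.977) and ORM2 by RPL35, which encodes a ribosomal protein (0.983). The best of 5216 values is high by choice.

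Companion lists of genes around this class were counted in the same fits, and each count is read against the share of all genes tested that was called: 6.69% higher and 9.40% lower with silencing, 15.7% and 18.2% with overexpression, and 16.9% and 16.1% between the lines. Of 17 other acute-phase genes tested, of 24 listed, 5 (29.4%) rose and 0 fell by edgeR with silencing (median log2 fold change 0.10; 2 were lower at an unadjusted p of 0.05, 1 by DESeq2 and 0 by limma-voom), among them FGB (0.44, SE 0.049, adjusted p = 6.0e-06), which encodes a fibrinogen chain, and SERPING1, the C1 inhibitor (0.32, SE 0.075, adjusted p = 0.00506). The count of rises was 3 without shTST replicate 1 or 4 and with all 12 libraries in the fit, and there were 2 falls without WT replicate 2 and under the replicate block and 1 without shTST replicate 3, with no filter and after length correction. With overexpression 2 (11.8%, near the background) rose and 8 (47.1%) fell (median −0.11). The count of falls was 5 without WT replicate 1 and 4 without overTST replicate 2, and that of rises was 1 without WT replicate 2 or overTST replicate 3 or 4. FGG, another fibrinogen chain, fell by 0.36 on the log2 scale (SE 0.057, adjusted p = 3.2e-05), and HAMP, which encodes the iron hormone hepcidin, rose by 0.45 (SE 0.073, adjusted p = 5.3e-05). After length correction the counts with overexpression were 1 higher and 6 lower. Between the lines 9 of the 17 (52.9%) were higher in shTST and 3 (17.6%, near the background) lower.

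Of 19 other plasma carriers tested, 4 (21.1%) rose and 1 (5.26%) fell with silencing (median 0.0096). HPR, the near copy of HP, was 1 of the 4 rises (0.24, SE 0.074, adjusted p = 0.0299). Its call was lost without WT replicate 2 or without shTST replicate 1, 2 or 3. With HP and HPR summed, 3 of the 18 carriers left rose. With overexpression 3 rose (15.8%, at the background) and 1 (5.26%) fell (median 0.024). The count of falls was 2 without WT replicate 2 with silencing and without overTST replicate 4 with overexpression, and length correction gave 1 rise and 2 falls with overexpression. SELENOP, a selenium carrier, fell in both (−0.26, adjusted p = 5.2e-04, and −0.38, adjusted p = 2.2e-06). ITIH2, a hyaluronan-binding protein, rose with silencing (0.32, adjusted p = 4.5e-04). KNG1, the kinin precursor, rose with overexpression (0.81, SE 0.13, adjusted p = 5.3e-05) from a low level of 4.32 ± 0.424 to 7.52 ± 1.44 CPM (SD, n = 4).

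The 18 genes of IL-6 and NF-κB signalling had 0 called higher by edgeR and 5 (27.8%) called lower with silencing (median −0.089). The lower count was 2 without WT replicate 2 or shTST replicate 1, and 3 without WT replicate 4 or shTST replicate 4. IL6R, the IL-6 receptor, fell by 0.42 on the log2 scale (SE 0.07, adjusted p = 3.7e-04), and CEBPB, a C/EBP factor, fell by 0.31 (SE 0.055, adjusted p = 7.2e-04). The count called higher was also 0 at an unadjusted p of 0.05 and by DESeq2 and limma-voom. With overexpression 1 (5.56%) rose and 7 (38.9%) fell (median −0.17; 2 rose without WT replicate 2), led by NFKB1 (−0.41, adjusted p = 1.6e-05) and the kinase JAK1 (−0.38, adjusted p = 2.7e-05). After length correction the counts were 1 higher and 2 lower. Of 21 liver transcription factors, 2 rose and 2 fell with silencing (9.52% each, at the background for falls), where FOXA2 fell (−0.26, adjusted p = 0.00288) and NR1H4, the bile acid receptor FXR, rose (0.22, adjusted p = 0.00665). With silencing, 1 rose without WT replicate 1, 3 or 4 or shTST replicate 2 or 4, and 1 fell without WT replicate 1 or 2 or shTST replicate 1 or 2. With overexpression 1 (4.76%) rose and 6 (28.6%) fell, among them PPARA (−0.43, adjusted p = 2.2e-05) and ZFHX3 (−0.34, adjusted p = 3.3e-05), and the rises were 3 without WT replicate 2 and after length correction and 2 after GC correction.

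A list of receptors and clearance genes, not limited to receptors of the 10 proteins, was counted as well. Of 9 tested, 2 rose and 2 fell with silencing (22.2% each), and 2 (22.2%) rose and 4 (44.4%) fell with overexpression. The rises with silencing were 0 by edgeR without WT replicate 3 or shTST replicate 3, and 1 without WT replicate 1, 2 or 4, without shTST replicate 1 or 4 and with no filter, and 1 rose with overexpression after length correction. TFRC, the receptor for transferrin, fell in both (−0.23, adjusted p = 5.9e-04, and −0.55, adjusted p = 2.1e-07). LRP1, which clears the haem–hemopexin complex, also fell in both (−0.26, adjusted p = 0.00167, and −0.72, adjusted p = 5.2e-09). All 26 genes of the secretory route were tested, and 9 (34.6%) rose and 2 (7.69%, near the background) fell with silencing (median 0.051). Leaving out WT replicate 4 took the rises to 4, as did leaving out shTST replicate 1 or 4, and 1 fell when shTST replicate 4 was left out. The folding factors PDIA4 (0.41, adjusted p = 1.9e-04) and HSP90B1 (0.34, adjusted p = 3.6e-04) were first. With overexpression 10 (38.5%) rose and 5 (19.2%, near the background) fell (median 0.053), and the smallest p belonged to genes that fell, the vesicle coat gene SEC24C (−0.52, adjusted p = 9.8e-07) and the cargo receptor gene MCFD2 (−0.42, adjusted p = 1.3e-06). GC correction took the count with silencing to 5 higher and 3 lower. Of the 12 markers of hepatocyte-derived lines, 3 (25.0%) rose and 2 (16.7%) fell with silencing, where GPC3 rose (0.50, adjusted p = 6.9e-04). The GPC3 call was lost with limma-voom (0.51, adjusted p = 0.0722), which called 1 of the list higher, and 1 of the list fell under upper-quartile scaling and without WT replicate 1 or 4 or any 1 shTST replicate. With overexpression 4 (33.3%) rose, 2 after length correction, and 2 (16.7%) fell, where APOB fell (−0.55, adjusted p = 1.5e-06) and KRT18 rose (0.23, adjusted p = 8.1e-04). Of the 13 markers of other cells, 6 were tested. The count called with silencing was 0 by edgeR, DESeq2 and limma-voom, with 3 lower at an unadjusted p of 0.05 by edgeR and 1 called lower without shTST replicate 4, and PECAM1 (−0.41, adjusted p = 0.0878) and CDH5 (−0.93, adjusted p = 0.0691) had the smallest p. With overexpression PECAM1 rose (0.60, adjusted p = 0.00278) and CDH5 fell (−1.31, adjusted p = 0.0129), both below 4 CPM on average, which made 2 (33.3%) called higher and 1 (16.7%) lower of the 6. CDH5 lost its call without WT replicate 2 (−1.13, adjusted p = 0.0565) or overTST replicate 3 (−0.95, adjusted p = 0.0642) and had no adjusted p by DESeq2, and 1 of the list was called higher without WT replicate 2, 3 or 4, without overTST replicate 2, 3 or 4, with no filter and after length correction. Their part in the results was not tested.

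**Figure D5:**
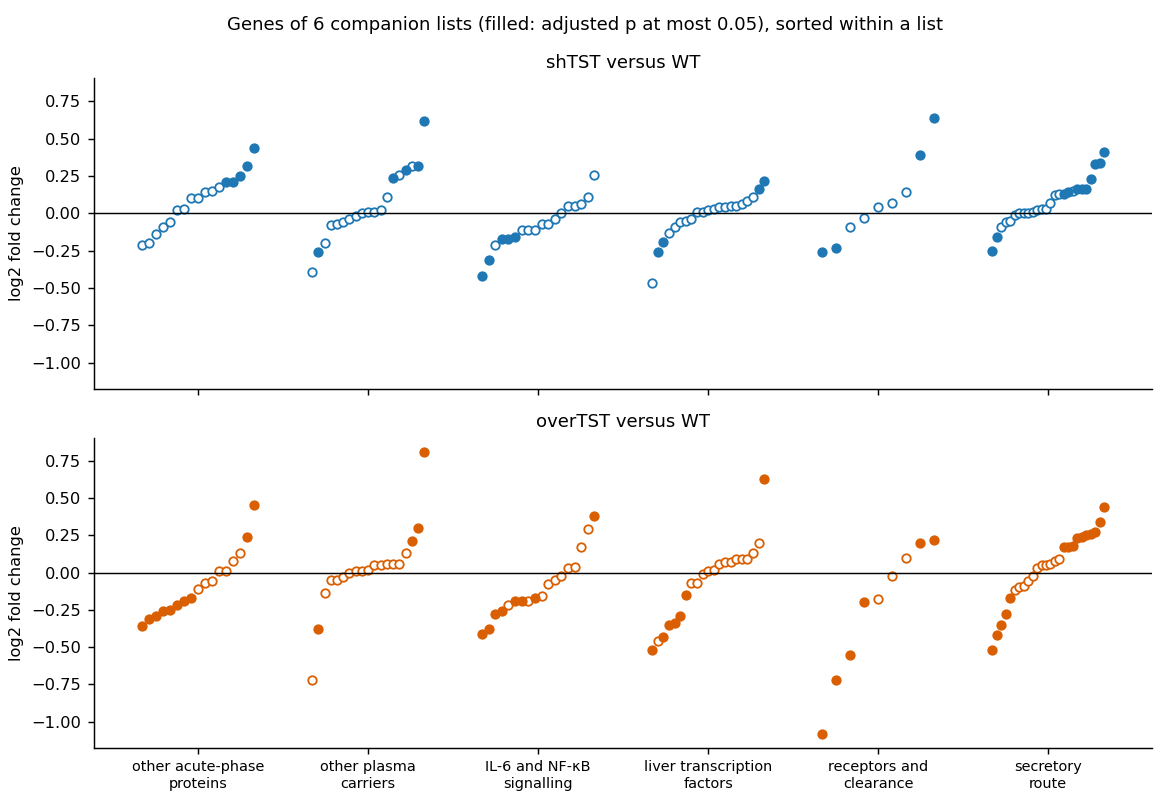
Log2 fold change of every tested gene of 6 companion lists in shTST versus WT (top) and overTST versus WT (bottom), sorted within each list; filled points have an adjusted p of at most 0.05. The other acute-phase genes hold 5 higher and 0 lower calls with silencing and 2 higher and 8 lower with overexpression.

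In bulk RNA the share of a gene can differ because fewer cells make it or because each cell holds less of it, and these cannot be told apart here. Secreted protein was not measured in these libraries. Of genes that overlap the 10 in the annotation, TXNL4B, on the opposite strand of HP, had 9% as many counts as HP, and ACSL3P1, within TF, had 0.48% as many as TF. Use of strand in counting is not given in the sources used here.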

How the data were processed

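RNA of 12 HepG2 libraries was sequenced. Per the submitters' processing notes, reads were trimmed (Trimmomatic 0.36), aligned to GRCh38 (STAR 2.5.2b) and counted with featureCounts of Subread 1.5.2. The authors deposited unnormalized whole-number read counts per Ensembl gene, 22911380 to 45120508 per library, whose depth sets the counting error only. Groups and replicate numbers came from the sample titles. The 10 genes and the companion lists were chosen with earlier results of these data known.

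Counts were filtered with filterByExpr, scaled by TMM and tested with the quasi-likelihood test of edgeR 4.0.16 (R 4.3.3) and Benjamini-Hochberg adjustment at 0.05, each comparison with WT on its own 8 libraries and shTST versus overTST on all 12. edgeR was also run on simulated counts with 200 genes changed 2-fold. It recovered 92.5% of them for shTST (14445 genes), 88% for overTST (14273 genes) and 87% between the lines (14713 genes). Of its calls there, 2.12%, 3.83% and 7.94% were false, in the same order. Recovery of changes smaller than 2-fold, such as those of the 10 genes, was not tested. Genes named besides the 10 are TST, HPR, genes that overlap the 10, markers of cell type, the 2 of smallest p of each list in each comparison with WT, and the best match in profile. Symbols matched 56410 identifiers. Alternatives were DESeq2 1.42.0, limma-voom (limma 3.58.1), RLE and upper-quartile scaling, no filter, more than 1 CPM in at least 4 libraries, other libraries in the fit, library sizes without the 10 genes and mitochondrial genes, a replicate block, length and GC corrections (lowess, span 0.3), near-identical copies summed, and each library left out. Ratios and figures used Python 3.11.15 with scipy 1.17.1 and matplotlib 3.10.9.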

Additional observations from a re-analysis of the deposited data

Results flagged for a closer look

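Of 39 groups of 4 libraries examined for the 10 genes and the 3 ratios, 2 had a library far from the others, and chance alone marks about 1 in 20 such groups. HP in overTST replicate 4 was at 171 CPM, against 153 to 156 in the other overexpressing libraries. ORM2 in overTST replicate 1 was at 112 CPM, against 124 to 125 in the others.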

How the results depend on the processing

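Of 627 alternative values for the log2 fold changes of the 10 genes, 561 kept their direction and their side of the threshold, 47 lost the call, 7 gained one and 12 changed sign. With silencing, the count of higher genes was 6 or 7 under all alternatives. The count of lower genes was 1, TTR, under upper-quartile scaling and GC correction, and 1 to 2 with a library left out. With overexpression the higher count was 3 to 5, and the lower count was 1 after length correction, with or without the replicate block. Between the lines the higher count was 1 by DESeq2, 0 by limma-voom and 1 to 3 with a library left out, and the lower count was 1 after length correction, with or without the block; the ranges without 1 library were 0 for lower genes with overexpression and 2 to 3 between the lines. Changes of sign were all in values that did not pass, except ORM1 between the lines, at 0.0003 after length correction and 0.0004 with the block added. AFP with overexpression ranged from −0.05 to 0.16 without 1 library. Between the lines HP ranged from −0.04 to 0.02 without 1 library and was 0.01 with HPR added, SERPINA1 ranged from −0.07 to 0.01 (0.0007 with no filter, 0.02 after GC correction, 0.002 without shTST replicate 4, 0.001 without overTST replicate 4), and AHSG was 0.02 after length correction, with or without the block. The causes were not tested.

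Whether libraries of the same number were made together is not given in their titles, and the check did not settle it. Their deviations from group means correlated at −0.053 to 0.08, beside −0.106 to 0.078 for libraries of other numbers. In 5 of 12 cases a library correlated best with its own number. The replicate block took the calls over all genes with silencing to 1247 higher and 1733 lower, and for the 10 genes it left 7 higher and 2 lower with silencing, 4 and 0 with overexpression, and 3 and 3 between the lines. The ratios of ALB to AFP, ORM1 to ORM2 and HP to HPX moved by less than the spread between replicates under their alternatives, where a block or a library left out allows no p of 0.05.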
